A study of Homo sapiens with 6 samples.

Results

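The tubulin isotypes described here are 10 genes, 4 for alpha-tubulin and 6 for beta-tubulin, taken from the 38986 gene symbols of the count files by their symbols alone. They are Tuba1a, Tuba1b, Tuba1c, Tuba4a, Tubb2a, Tubb2b, Tubb3, Tubb4b, Tubb5 and Tubb6, and all 10 were among the 12938 genes that passed the filter on low counts. RNA was sequenced from 6 libraries of polyadenylated RNA. In 3 of them the labels name mCherry-positive 293T cells, a human embryonic kidney line, with wild-type STAT6 (genotype STAT6 overexpression). The other 3 are labelled as mCherry-positive 293T cells with Mock (genotype WT). All were grown in serum-containing DMEM, and the study asked how STAT6, a transcription factor of interleukin 4 signalling, acts on mitochondrial gene expression. How STAT6 was introduced, and whether replicates were separate cultures, is not given in the sources used here, so the p-values speak of differences among these 6 libraries, whose replicate spread may be only technical.

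The labels and the files differ. The symbols are mouse symbols, of which 30 of 38986 are spelled as a human gene in GRCh38.p14. Stat6 stood at 33.6 ± 1.53 CPM (counts scaled to 1000000 per library; SD, n = 3) in STAT6-labelled libraries and at 94.5 ± 1.49 CPM in Mock-labelled ones, so it was lower where the label says overexpression. Of 6 embryonic kidney markers, Pax8 and Six2 were at 0 counts in every library, and the 6 together stayed under 0.464 CPM. A list of 7 melanocyte markers (Tyr, Tyrp1, Dct, Pmel, Mlana, Mitf, Sox10) summed to 16705 to 16841 CPM in STAT6-labelled libraries and 14404 to 14750 CPM in Mock-labelled ones. Library totals were 19894773 to 29802693 counts. Directions below follow the labels, and "higher" is used for STAT6-labelled libraries above Mock-labelled ones.

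Microtubules are hollow polymers of alpha- and beta-tubulin heterodimers that form the mitotic spindle, carry organelles and cargo, and build cilia and axons. Mammals make each subunit from several genes, the isotypes, whose proteins are nearly alike in the folded body and differ most in the acidic tail at the C terminus, where enzymes add and remove tyrosine and glutamate. Cells also match tubulin mRNA to the pool of free dimers, by a pathway that recognises nascent tubulin chains at the ribosome and degrades their mRNA. In pigment cells microtubules carry melanosomes toward the cell edge.

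Of the 10 tubulin genes, 5 rose and 3 fell in STAT6-labelled libraries, while 2 did not pass the threshold (edgeR quasi-likelihood test, Benjamini-Hochberg adjusted p under 0.05). Over all genes tested 72.6% passed, 35.8% as higher and 36.8% as lower, so a share of 80% among the tubulins lay near the background. The groups did not overlap in 8 of the 10, where 74.6% of all tested genes had no overlap. Their median log2 fold change was 0.07, beside -0.00 over all genes tested. A change beyond 1.5-fold passed its test (glmTreat) in 3 of the 10, Tubb3 and Tubb2a as higher and Tubb2b as lower. The same test passed 21.5% of all genes. The members that moved most were thus 3 beta-tubulin genes best known from neurons. In these bulk libraries, fewer cells of a type and less RNA per cell cannot be told apart.

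**Figure D1:**
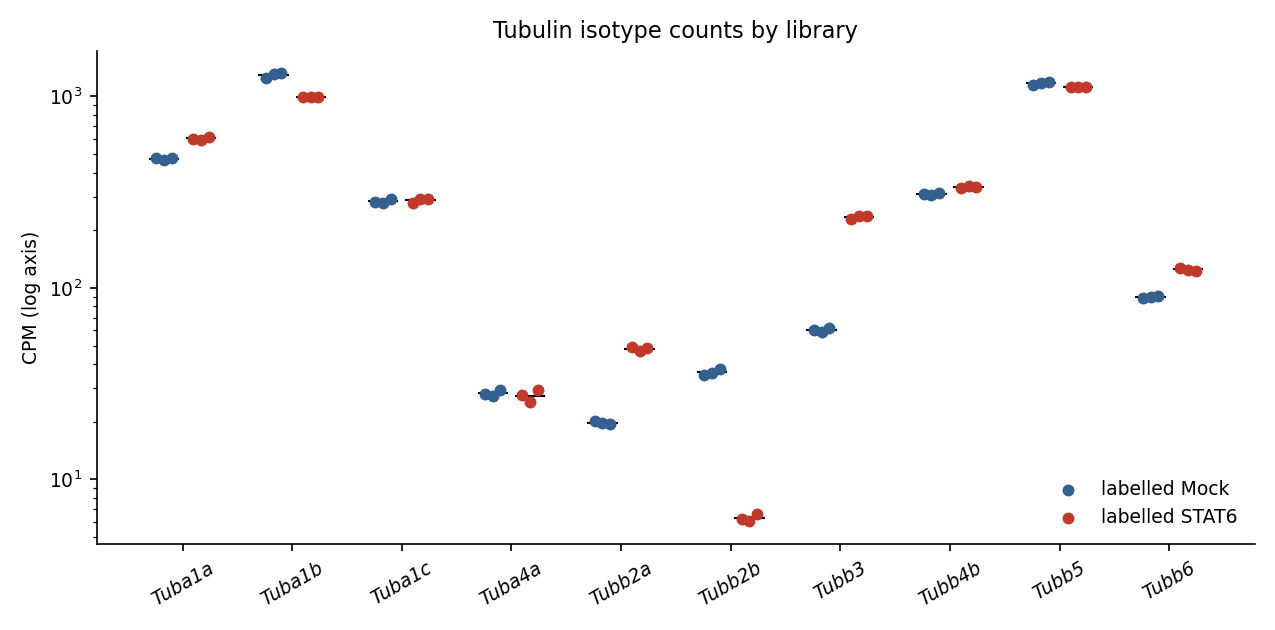
CPM of the 10 tubulin genes in each library, on a log axis, with Mock-labelled libraries in blue, STAT6-labelled ones in red and group means as black lines. The groups stand far apart for Tubb2a, Tubb2b and Tubb3, nearly touch for Tubb5, and overlap for Tuba1c and Tuba4a. Heights are not scaled to gene length, so they are read within a gene only.

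Among the alpha-tubulins, Tuba1a and Tuba1b moved in opposite directions. Tuba1a, the main alpha isotype of young neurons, had 601, 593 and 617 CPM in STAT6-labelled libraries 1 to 3 and 477, 465 and 474 CPM in Mock-labelled ones. It was higher in all 3 STAT6-labelled libraries, by 1.28-fold (log2 fold change 0.36, SE 0.03, adjusted p = 1.93e-13). Tuba1b, an alpha isotype of most dividing cells, had 994, 994 and 996 CPM against 1255, 1309 and 1323 CPM. All 3 STAT6-labelled libraries lay below the lowest Mock library (log2 fold change -0.38, SE 0.03, adjusted p = 7.38e-15). Within a library, the ratio of Tuba1a to Tuba1b counts was 0.605, 0.597 and 0.620 against 0.380, 0.355 and 0.359. This ratio, chosen after its values were seen, was 1.67 times as high without overlap (exact permutation test, 2-sided, p = 0.1, which is the lowest value 20 assignments can give).

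The other alpha-tubulins did not pass the threshold. Tuba1c, also widely expressed, had 276, 291 and 293 CPM in STAT6-labelled libraries and 282, 279 and 293 CPM in Mock-labelled ones, and the groups overlapped (log2 fold change 0.01, SE 0.03, adjusted p = 0.798). Tuba4a encodes an alpha-tubulin without the terminal tyrosine and is abundant in platelets. It had 27.4, 25.4 and 29.3 CPM against 27.9, 27.3 and 29.2 CPM, and its log2 fold change was -0.04 (adjusted p = 0.552, SE 0.06). Its spread was the widest of the 10 genes in STAT6-labelled libraries, at a coefficient of variation of 7.13%. Tuba1a, Tuba1b and Tuba1c encode nearly identical proteins, and how reads shared between them were assigned is not given in the sources used here. Their split is therefore less certain than their sum.

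Tubb3 had the largest rise of the members. It encodes class III beta-tubulin, a neuronal isotype that many tumours, melanoma among them, also make. STAT6-labelled libraries had 229, 237 and 238 CPM of it and Mock-labelled ones 60.0, 58.8 and 61.5 CPM. The lowest STAT6-labelled library was thus far above the highest Mock library, and the rise was 3.90-fold (log2 fold change 1.96, SE 0.04, adjusted p = 2.99e-32). Neuron markers stayed near 0: 9 such genes, from Rbfox3 to Stmn2, summed to 0.346 to 0.773 CPM in STAT6-labelled libraries and 0.262 to 0.862 CPM in Mock-labelled ones, and Elavl4 was at 0 in every library. As log2 fold changes, 4 of the 7 melanocyte markers rose, Sox10 (0.53), Dct (0.54), Mitf (0.19) and Tyrp1 (0.09). The 2 that fell were Tyr (-3.38) and Pmel (-0.06). The share of these markers past the threshold, 85.7%, stood beside 72.6% of all genes tested, 35.8% as higher and 36.8% as lower. None of the 4 rises passed as changed beyond 1.5-fold. Pmel kept no call in edgeR with DESeq2 size factors (adjusted p = 0.0556) or in DESeq2 (0.0767), nor when Mock replicate 1 (0.131), Mock replicate 3 (0.0971), STAT6 replicate 2 (0.217) or STAT6 replicate 3 (0.0919) was left out. The part of these markers in the result was not tested.

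The class II genes Tubb2a and Tubb2b split. Both are known as neuronal beta-tubulins, and Tubb2b is needed for neuron migration in the cortex. Tubb2a had 48.8, 47.0 and 48.7 CPM in STAT6-labelled libraries against 20.2, 19.7 and 19.5 CPM in Mock-labelled ones. It was 2.44-fold higher (log2 fold change 1.29, SE 0.05, adjusted p = 1.45e-21). No library of one group reached the other. Tubb2b had 6.18, 6.03 and 6.57 CPM against 35.2, 35.9 and 37.6 CPM. This was a 5.80-fold fall (log2 fold change -2.54, SE 0.07, adjusted p = 2.87e-26), the largest of any member, and it was seen in all 3 libraries.

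The ratio of Tubb2a to Tubb2b counts was 7.91, 7.79 and 7.42 in STAT6-labelled libraries and 0.573, 0.548 and 0.519 in Mock-labelled ones. Counts were not scaled to transcript length, so this ratio is read between groups only. The mean ratio, chosen after its values were seen, was 14.1 times as high (exact permutation test, 2-sided, p = 0.1, the smallest possible). In the human assembly GRCh38.p14 the counterparts TUBB2A and TUBB2B are adjacent protein-coding genes. They are close copies, and how reads shared between such copies were assigned is not given.

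Tubb6, class V beta-tubulin, had 127, 124 and 123 CPM in STAT6-labelled libraries and 88.1, 90.04 and 90.9 CPM in Mock-labelled ones. All 3 were above all 3, a 1.39-fold rise (log2 fold change 0.48, SE 0.04, adjusted p = 4.57e-14). The fibroblast marker Col1a1 moved the same way, from 4.85 ± 0.421 to 78.7 ± 3.14 CPM (SD, n = 3). The other fibroblast markers did not stand with it: Dcn and Lum had 0 counts in STAT6-labelled libraries and 1 count each in Mock-labelled ones, and Pdgfra had a log2 fold change of 0.34 (adjusted p = 0.223). The 4 fibroblast markers summed to 76.5 to 82.8 CPM against 5.60 to 6.55 CPM, and their part in the result was not tested.

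Among the beta-tubulins, the isotypes of most cell types changed least. Tubb4b, class IVb, had 332, 341 and 335 CPM in STAT6-labelled libraries and 308, 305 and 311 CPM in Mock-labelled ones. The groups did not overlap, and the rise was 1.09-fold (log2 fold change 0.12, SE 0.03, adjusted p = 0.000379). Scaled to library totals alone, Tubb4b lost this call (log2 fold change 0.05, adjusted p = 0.142). That scaling moved the median log2 fold change of all genes tested by -0.07. Tubb5, class I and the common beta-tubulin of dividing cells, had 1124, 1114 and 1123 CPM against 1153, 1181 and 1183 CPM. Its groups lay next to each other without overlap, and the log2 fold change was -0.07 (adjusted p = 0.0259, SE 0.03). The call was lost without STAT6 replicate 2 (0.114) or STAT6 replicate 3 (0.0542).

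**Figure D2:**
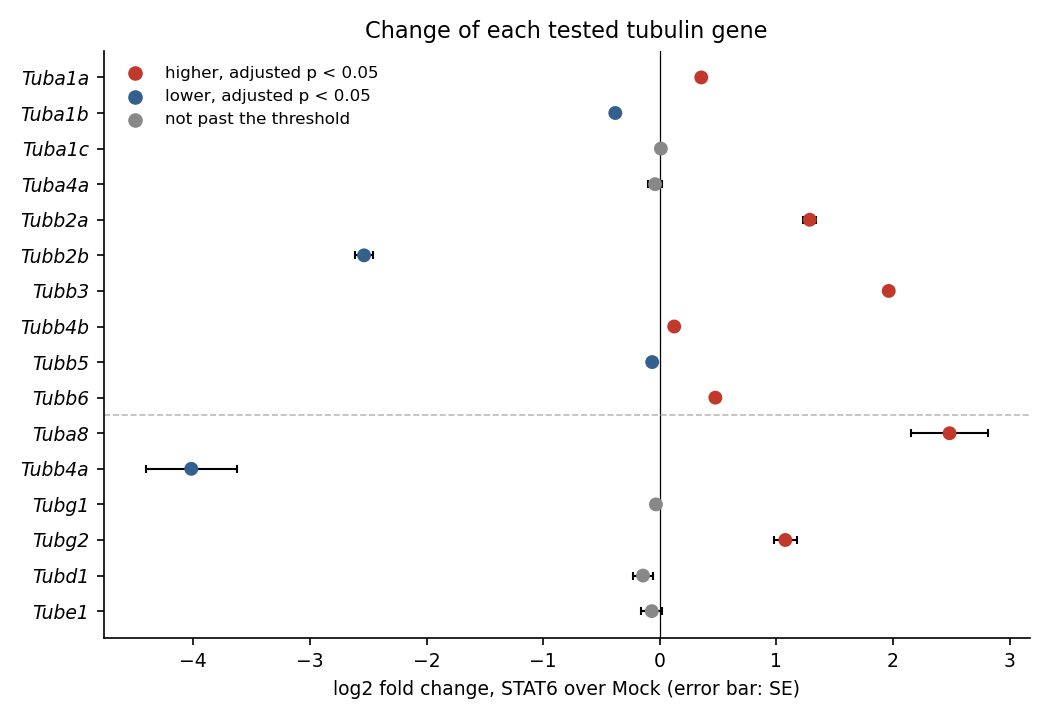
Log2 fold change of each tested tubulin gene, STAT6-labelled libraries over Mock, with its SE as the error bar; the 10 isotypes are above the dashed line and 6 other tubulin genes below it. Tubb3 (1.96) and Tubb2a (1.29) lie far to the right and Tubb2b (-2.54) far to the left, while Tuba1c, Tuba4a and Tubb5 lie close to 0.

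Summed over the 10 genes, the tubulin level hardly differed. It was 3767, 3772 and 3809 CPM in STAT6-labelled libraries and 3706, 3769 and 3823 CPM in Mock-labelled ones, and the groups overlapped. The means of 3783 ± 23.3 and 3766 ± 58.6 CPM (SD, n = 3) differed by 16.5 CPM (exact permutation test, 2-sided, p = 0.8). Scaled to library totals alone, the sum turned to lower, at a log2 ratio of -0.07 (exact permutation test, p = 0.1, the smallest possible). That scaling also moved the median log2 fold change of all genes tested by -0.07, so the turn is not particular to tubulin. Without Mock replicate 1 it also turned, to -0.0051 (exact permutation test, p = 0.6). As shares of all counts, the 10 genes held 0.369%, 0.368% and 0.368% against 0.382%, 0.384% and 0.392%.

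Beneath that sum, alpha-tubulin counts were lower and beta-tubulin counts higher in STAT6-labelled libraries. Summed alpha-tubulin had 1912 ± 19.7 CPM against 2080.0 ± 38.8 CPM, and summed beta-tubulin had 1870.2 ± 3.53 CPM against 1686 ± 19.96 CPM (SD, n = 3). Neither sum overlapped between groups (exact permutation test, 2-sided, p = 0.1 for each, the smallest possible). Of the alpha genes only Tuba1b fell past the threshold (995 against 1295 CPM), while Tuba1a rose (604 against 472 CPM). Tubb3 (235 against 60.1 CPM) added most to the rise of the beta sum, while Tubb5 and Tubb2b fell. The sums thus do not show a shift shared by all alpha or all beta genes. The ratio of alpha to beta counts was 1.02, 1.02 and 1.03 against 1.23, 1.23 and 1.24, or 0.829 times as high, again without overlap (exact permutation test, p = 0.1). Counts grow with transcript length, so the ratio is not one of molecules.

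Taken as shares of the 10-gene total, 8 of the 10 isotypes shifted, 5 upward and 3 downward. Counts were not scaled to transcript length, so these are not shares of molecules. The test was edgeR with the family total as library size, by which 72.3% of all genes passed, 35.3% upward and 36.9% downward. Because the summed level hardly differed between groups, this test largely repeats the one on single genes, and it called the same 5 and 3 isotypes. Tuba1b gave up the most, from 34.4% ± 0.469 in Mock-labelled libraries to 26.3% ± 0.129 in STAT6-labelled ones (SD, n = 3; log2 change of share -0.39, adjusted p = 1.64e-14). Tubb3 gained the most, from 1.60% ± 0.0315 to 6.20% ± 0.103 (log2 change 1.96, adjusted p = 1.95e-29). Tuba1a went from 12.5% to 16.0%, Tubb6 from 2.38% to 3.30%, Tubb4b from 8.19% to 8.88% and Tubb2a from 0.526% to 1.27%. Tubb5 went from 31.1% to 29.6% (adjusted p = 0.0162), a call lost without STAT6 replicate 2 (0.0699) or STAT6 replicate 3 (0.0579). The share of Tubb2b went from 0.962% to 0.165%. Tuba1c, at 7.56% and 7.58%, and Tuba4a, at 0.747% and 0.724%, did not pass (adjusted p = 0.930 and 0.509).

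**Figure D3:**
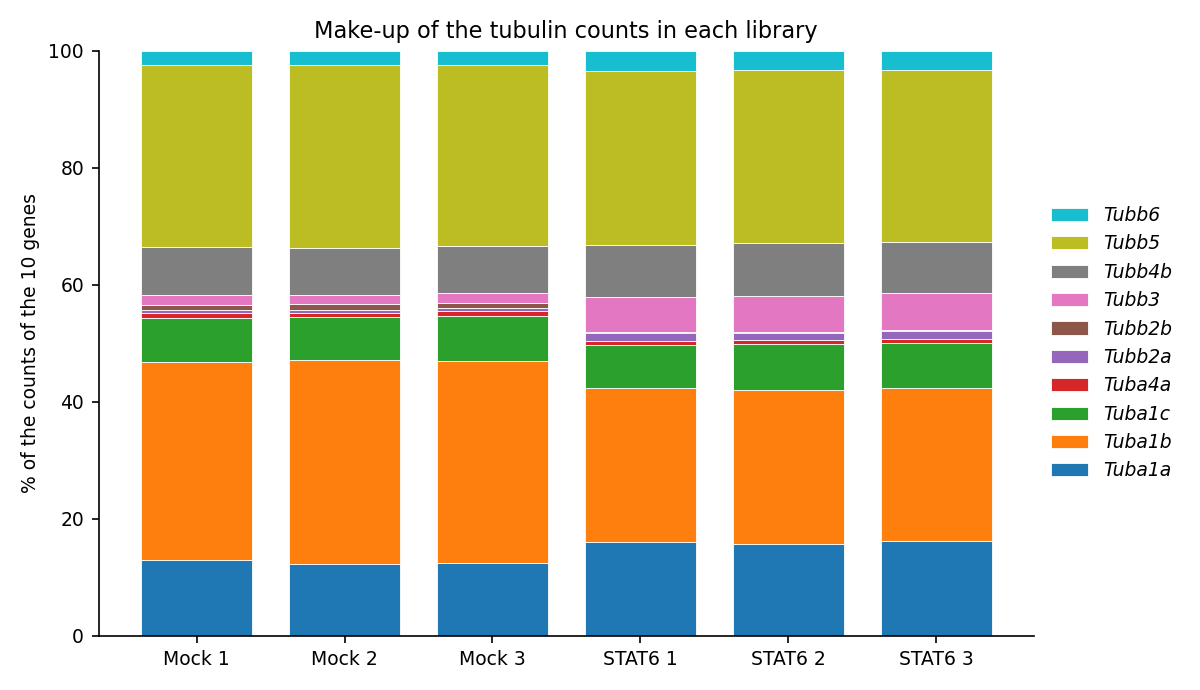
Percent of the counts of the 10 tubulin genes that each gene held, stacked to 100% for each library and not scaled to transcript length. The band of Tubb3 widens from 1.60% to 6.20% between Mock-labelled libraries and STAT6-labelled ones and that of Tuba1b narrows from 34.4% to 26.3%, while libraries of a group look alike.

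Other tubulin genes were few and mostly low. Of 10 listed, 6 were tested, 2 being higher and 1 lower, or 50% past the threshold beside 72.6% of all genes. Tuba8, a divergent alpha-tubulin, had 1.94, 1.91 and 2.11 CPM in STAT6-labelled libraries and 0.0868, 0.517 and 0.425 CPM in Mock-labelled ones (log2 fold change 2.48, SE 0.33, adjusted p = 2.46e-08). Tubb4a, the class IVa isotype of neurons and oligodendrocytes, had 7 counts in all STAT6-labelled libraries together and 145 in the Mock-labelled ones (log2 fold change -4.02, SE 0.39, adjusted p = 2.6e-11). Both genes are at a very low level. Each passed the filter on low counts only through the group where it was higher, so its being tested depended on that difference. The untested ones, Tuba3a, Tuba3b, Tubal3 and Tubb1, had at most 5 counts over a group.

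Tubg2, a second gamma-tubulin, had 16.9, 17.5 and 13.3 CPM in STAT6-labelled libraries against 6.94, 7.33 and 8.24 CPM in Mock-labelled ones, and was 2.11-fold higher (log2 fold change 1.08, SE 0.10, adjusted p = 2.95e-11). Tubg1, the gamma-tubulin that nucleates microtubules in most cells, had 121.2 ± 1.46 against 124 ± 1.63 CPM (log2 fold change -0.03, adjusted p = 0.398). Tubd1 and Tube1, delta- and epsilon-tubulin of the centriole, had log2 fold changes of -0.14 (adjusted p = 0.145) and -0.07 (adjusted p = 0.491). Scaled to library totals alone, which moved the median of all genes by -0.07, Tubg1 (-0.11, adjusted p = 0.00679) and Tubd1 (-0.22, adjusted p = 0.0259) passed as lower. Without Mock replicate 2, Tubd1 also passed (-0.22, adjusted p = 0.0261).

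Prefoldin hands new actin and tubulin chains to the chaperonin CCT, which folds them. Of 14 genes of both complexes 11 were lower, 1 was higher and 2 did not pass, with a median log2 fold change of -0.31. Of the list 85.7% passed, beside 72.6% of all genes tested, of which 36.8% were lower and 35.8% higher. The largest falls were in CCT subunits. Cct3 had 207, 204 and 203 CPM against 364, 357 and 368 CPM (log2 fold change -0.83, SE 0.03, adjusted p = 5.44e-23). It alone of the 14 passed as changed beyond 1.5-fold. Cct5 (-0.56), Cct4 (-0.47) and Cct2 (-0.38) fell as well. The 1 gene that rose was the prefoldin subunit Pfdn2 (0.28), named after its value was seen.

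The cofactors that receive alpha- and beta-tubulin from CCT and join them into dimers had 3 higher, 2 lower and 2 not past the threshold of 7, at a median log2 fold change of -0.01. The share that passed, 71.4%, lay near the 72.6% of all genes (35.8% higher, 36.8% lower). Tbca, which holds beta-tubulin, fell (-0.36) from 138 ± 2.85 to 108 ± 5.84 CPM (SD, n = 3). Tbce, which holds alpha-tubulin, fell (-0.61) from 22.1 ± 0.651 to 14.5 ± 1.04 CPM. Tbcel, a relative of Tbce that destabilises tubulin, rose (0.73) from 23.4 ± 1.28 to 38.7 ± 1.87 CPM. Tbcc, which releases the finished dimer, rose by 0.31, and Arl2, a GTPase that works with the cofactors, by 0.19, a call lost without STAT6 replicate 1 (adjusted p = 0.0758) and under library totals alone (0.0967). Arl2 and the other genes marked here as added were named after their values were seen.

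Among 3 genes of tubulin mRNA autoregulation, 0 passed the threshold with edgeR, 0 with DESeq2 and 0 at an unadjusted p under 0.05. Over all genes tested, 72.6% passed with edgeR (35.8% higher, 36.8% lower) and 8727 of 12938 with DESeq2. Ttc5, which binds the first residues of nascent tubulin, had 22.6 ± 1.21 against 21.7 ± 0.769 CPM (log2 fold change 0.06, SE 0.06). Its partner Scaper was at -0.06 (SE 0.06), and Cnot11, which recruits the deadenylase, at -0.03 (SE 0.04). Under library totals alone, 2 of the 3 passed as lower, Scaper (-0.14, adjusted p = 0.0480) and Cnot11 (-0.10, adjusted p = 0.0203). In that setting 9525 of all 12938 genes passed, and the median log2 fold change over all genes moved by -0.07.

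Enzymes add and remove chemical groups on tubulin, mostly at its tails. Of 28 such genes listed, 19 were tested, 6 being higher, 5 lower and 8 without a call, and the median log2 fold change was -0.06. Fewer of these genes passed, 57.9%, than the 72.6% of all genes tested, 35.8% as higher and 36.8% as lower. The vasohibins, which remove the terminal tyrosine of alpha-tubulin, changed in opposite directions. Vash1 had 6.09, 6.13 and 6.08 CPM against 1.56, 1.94 and 2.32 CPM (log2 fold change 1.63, SE 0.16, adjusted p = 2.36e-11). Vash2 had 1.51, 1.24 and 1.47 CPM against 3.69, 3.41 and 5.10 CPM (-1.54, SE 0.20, adjusted p = 1.39e-08). Neither gene overlapped between groups, but the rule by which they were named required this, and 74.6% of all tested genes had no overlap. Tpgs1, a subunit of the neuronal polyglutamylase, rose (1.04) from 11.0 ± 1.25 to 22.7 ± 1.78 CPM (SD, n = 3), and Ttll12 fell by 0.30 on the log2 scale. Added genes that rose were the vasohibin partner Svbp (0.38), the deacetylase gene Sirt2 (0.25) and the tubulin ligase relatives Ttll1 (0.32) and Ttll3 (0.82). Those that fell were the deacetylase gene Hdac6 (-0.33), the glutamylase gene Ttll5 (-0.41) and the deglutamylase gene Agbl5 (-0.41). Under library totals alone, 10 of the 19 were lower. In that setting 9525 of all 12938 genes passed, 42.5% of them as higher, and the median over all genes moved by -0.07.

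Gamma-tubulin rings and the proteins that place them start new microtubules. Of 11 such genes tested, 7 were lower, 2 higher and 2 without a call, and the median log2 fold change was -0.21. With 81.8% past the threshold the list stood beside 72.6% of all genes, 36.8% lower and 35.8% higher. The large scaffold Akap9 fell most (-0.82, SE 0.05, adjusted p = 3.62e-08), from 218 ± 16.9 to 123 ± 6.01 CPM (SD, n = 3). The ring subunit Tubgcp3 (-0.52) and Nedd1 (-0.38), which brings rings to the centrosome and spindle, fell too. Mzt1, a small ring component, rose (0.52) from 48.3 ± 3.13 to 69.0 ± 3.63 CPM. The second rise, of Pcnt (0.13, named after its value was seen), lay within overlapping groups. The call of Pcnt was lost under library totals alone (adjusted p = 0.232) and without STAT6 replicate 3 (0.111), Mock replicate 1 (0.0774) or Mock replicate 3 (0.0630), which left 1 gene higher.

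Proteins that bind the microtubule wall had 7 higher, 2 lower and 1 not past the threshold of 10 tested, at a median log2 fold change of 0.33. This was 90% past the threshold, while over all genes 72.6% passed, 35.8% higher and 36.8% lower. Map6, which stabilises microtubules against cold, had 68.8, 70.0 and 71.5 CPM against 27.2, 26.6 and 28.2 CPM (log2 fold change 1.35, SE 0.05, adjusted p = 7.00e-24). Map1a (1.13) and the doublecortin-like kinase Dclk1 (0.90) rose as well. The dendritic protein Map2 fell, from 20.3, 19.1 and 17.2 CPM in Mock-labelled libraries to 4.84, 3.86 and 4.41 CPM (-2.10, SE 0.10, adjusted p = 6.59e-20). Of added genes, Map4 (0.53), Map1b (0.36), Mapt, which encodes tau (0.30), and Map7d1 (0.26) rose, and Mtus1 fell (-2.04). The groups overlapped for Mapt, and Mtus1 had only 30 counts in the STAT6-labelled libraries together. Of the 10, 3 passed as higher and 2 as lower beyond 1.5-fold, where 14% and 7.51% of all genes did.

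Plus-end tracking proteins, which ride on growing ends, were 4 higher, 5 lower and 1 without a call of 10 tested, and the median log2 fold change was -0.08. Here too 90% passed, beside 72.6% of all genes (35.8% higher, 36.8% lower). The end-binding gene Mapre3 had 61.6, 61.2 and 61.3 CPM against 14.4, 14.7 and 15.4 CPM, a 4.13-fold rise (log2 fold change 2.05, SE 0.05, adjusted p = 1.32e-27). Its relative Mapre1 rose by 0.38 and Clip2 by 0.43, while the polymerase gene Ckap5 fell (-0.36). Among added genes, Clasp1 rose (0.37), whereas its paralog Clasp2 fell (-0.28), as did Mapre2 (-0.22), Slain1 (-1.56) and Slain2 (-0.25).

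Destabilising and severing proteins were 4 higher and 8 lower of 12 tested, with a median log2 fold change of -0.34. All 12 passed, where 72.6% of all genes did, 35.8% as higher and 36.8% as lower. Stmn4, a stathmin that sequesters dimers, had 4.88, 4.28 and 3.53 CPM against 0.0868, 0.172 and 0.131 CPM (log2 fold change 4.97, SE 0.31, adjusted p = 1.33e-16), resting on 10 counts in the Mock-labelled libraries together. Katna1, the severing enzyme katanin, rose (0.67), and so did the added severing genes Fign (0.59) and Katnal1 (0.57). The depolymerising kinesins Kif2a (-0.60) and Kif2c (-0.53) fell, Kif2a from 97.1 ± 1.51 to 63.8 ± 2.36 CPM and Kif2c from 80.9 ± 1.195 to 55.9 ± 0.862 CPM (SD, n = 3).

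**Figure D4:**
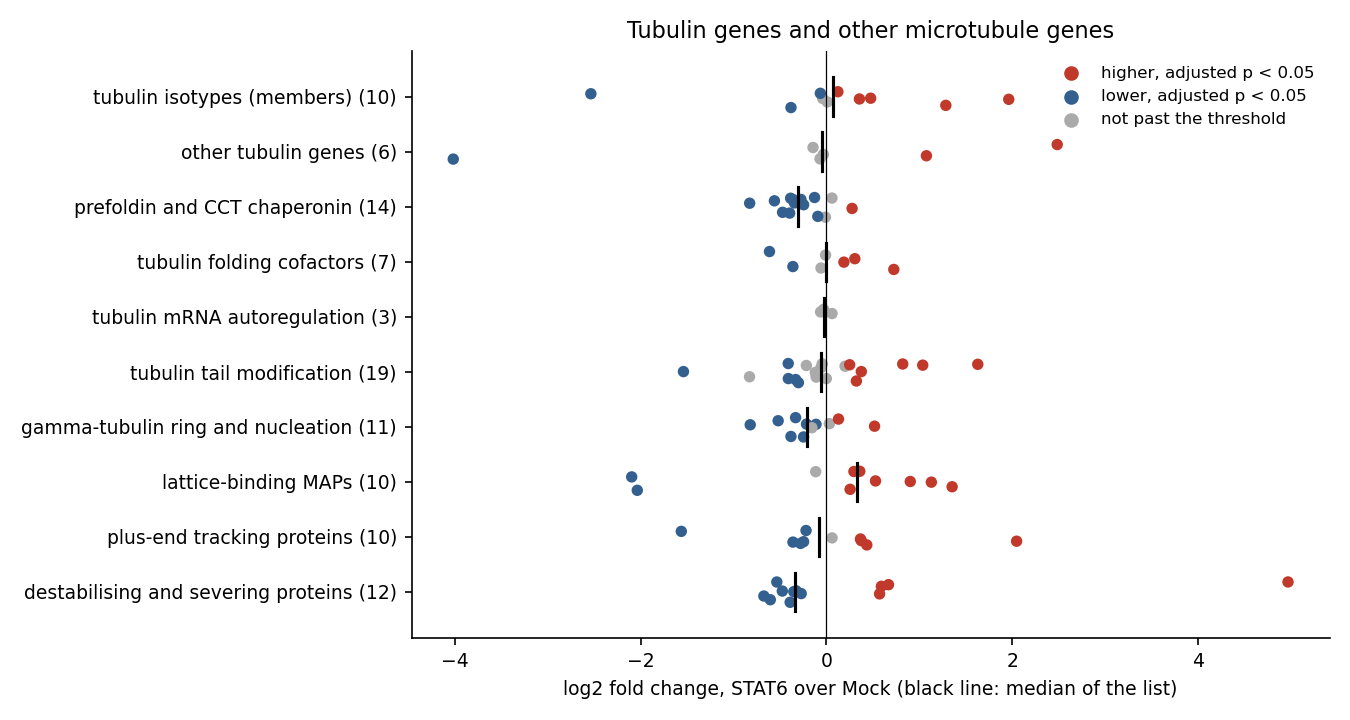
Log2 fold change of each tested gene, STAT6-labelled libraries over Mock, for the 10 tubulin isotypes and 9 other lists of tubulin and microtubule genes, with the number tested in brackets and the list median as a black line. The isotypes spread from -2.54 to 1.96, while the prefoldin and CCT genes sit in a narrow band with a median of -0.31.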

How the data were processed

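The authors deposited 1 whole-number count per gene symbol and library. Per the submitters' processing notes, FastQC, STAR, Salmon and edgeR were used with the human build GRCh37; versions, roles, strand setting and read assignment: not given in the sources used here. No mouse sequence or gene length was used, so no sequence or coordinate is printed and levels of single genes are compared between groups only. Sums, ratios and shares join counts of several genes that were not scaled to gene length.

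Counts were analysed with edgeR 4.0.16 in R 4.3.3: filterByExpr by group, TMM, glmQLFit with robust = TRUE and glmQLFTest, 2-sided, all 6 libraries, no covariate, Benjamini-Hochberg adjustment over 12938 genes. SE is the log2 fold change over the root of F. CPM uses TMM-adjusted totals. Shares within the family were tested with the 10-gene total as library size. Sums and ratios had an exact permutation test over libraries. DESeq2 1.42.0, DESeq2 size factors, library totals alone, no filter, the replicate block and leaving out each library were alternatives; glmTreat was added after the data were seen.

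The fit was tested on simulated counts for 12938 genes, 200 of them changed, and recovered 78% of 1.2-fold changes and 96% of 2-fold changes. In the data 72.6% of genes passed the threshold, so these rates may not hold for this comparison. The tubulin genes and lists were chosen with earlier results of these data known. Named were all members, each tested tubulin gene and, from each list, up to 4 genes with the smallest adjusted p and no overlap. No library was a copy of another: within groups the median chi-square was 1.46 to 2.48 times counting noise.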

Additional observations from a re-analysis of the deposited data

How the results depend on the processing

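Over 78 named genes and 11 alternative settings, 831 of 858 log2 fold changes kept their direction and side of the threshold, 15 lost a call, 5 gained one and 7 turned. Those that turned belonged to Ttc5, Tuba1c and Tuba4a, which had no call: Ttc5 was -0.013 under library totals alone, Tuba1c was -0.065 on the log2 scale under library totals alone, -0.0070 with no filter, and -0.011 to 0.033 when 1 library was left out, and Tuba4a was -0.093 to 0.011 then. Relative to the family they ranged from -0.012 to 0.026 and from -0.090 to 0.0014. The summed tubulin level was -0.068 under library totals alone and -0.0051 to 0.017 with 1 library left out. Library totals alone moved the median log2 fold change of all 12938 genes by -0.07, with 42.5% of 9525 calls as higher. Under library totals alone, lower counts were 3 for other tubulins, 2 for autoregulation and 10 for tail modification, and the higher count for nucleation was 1. With 1 library left out these were 1 to 2 for other tubulins, lower, and 1 to 2 for nucleation, higher.

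With glmTreat, 2779 genes passed beyond 1.5-fold, or 21.5% of all genes tested, 14% as higher and 7.51% as lower. Tubulin isotypes were 2 higher and 1 lower, tail modification 3 and 1, plus-end tracking 1 and 1. Lattice-binding proteins had 3 higher and 2 lower. By the same test, prefoldin and CCT had 0 higher and 1 lower, folding cofactors 1 and 0, nucleation 0 and 1, and destabilising genes 1 and 0. At an unadjusted p under 0.05 in glmTreat these were 0 and 1, 1 and 0, 0 and 1, and 2 and 1. The share of all genes at that unadjusted threshold is not given here, so these last counts cannot be set against it.

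The labels name no batch, so whether same-numbered libraries share more than a number is not known. Deviations of same-numbered libraries correlated at 0.05, 0.10 and 0.03, and 5 of 6 libraries correlated best with their own number. These correlations were weak. The deviations were taken from group means, so the 6 matches depend on one another and do not show that libraries were paired. With the replicate block 9422 genes passed against 9399, and the isotypes were again 5 higher and 3 lower. Low counts limit Tuba8, Tubb4a, Stmn4 and Mtus1, which each passed the filter on low counts only through the group where they were higher.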

Other observations

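In the human assembly GRCh38.p14, TUBB3 lies between MC1R and DEF8 among protein-coding genes. The mouse genes of those names were looked at after the values of Tubb3 were seen. Mc1r, the melanocortin receptor of pigment cells, stood at 187 ± 0.936 CPM in STAT6-labelled libraries and 104 ± 2.46 CPM in Mock-labelled ones (SD, n = 3; log2 fold change 0.85, SE 0.03, adjusted p = 6.22e-22), higher in all 3. Def8 stood at 34.1 ± 1.59 against 45.3 ± 1.06 CPM (log2 fold change -0.41, adjusted p = 5.1e-09), lower in all 3.

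A pseudogene listed as Tubb2a-ps2 had 2 counts in all STAT6-labelled libraries together and 8 in the Mock-labelled ones. With the summed level of the 10 isotypes, 4 of 12928 other genes had a Pearson correlation above 0.95 over the 6 libraries, the highest being Foxred2 (0.983), Ankrd54 (0.972) and Awat2 (0.970). None of these 3 passed the threshold between groups (edgeR, adjusted p = 0.856 for Foxred2, 0.881 for Ankrd54 and 0.938 for Awat2). They were picked for following a sum whose groups overlapped, so the lack of a call says nothing more about them.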
